A study of Mus musculus with 14 samples.

Results

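Late overload of the mouse plantaris was compared with early overload. The late group held the 4 arrays labelled day 10 or day 14, and the early group held the 4 arrays labelled day 1 or day 3. These were 8 of the 14 arrays of a time course with 2 arrays on each of 7 days (0, 1, 3, 5, 7, 10 and 14). The arrays of each group were chosen by the time point label alone, with no use of the measured values, and every one of 19938 named genes was tested. The comparison itself and the gene lists were chosen with earlier results of these data known. All groups were male C57BL/6J mice aged 5 months, and all days after day 0 followed synergist ablation, which removes the muscles that share the work of the plantaris and leaves it to carry the load and enlarge. Day 0 is the group before overload, and no sham-operated group was used here, so that the effects of surgery and of load cannot be told apart. Each array read RNA pooled from 6 animals, from right plantaris muscles on 1 array of a day and from left muscles on the other. Whether the right and left pools of a day share their 6 animals is left unsaid by the labels. The p-values therefore describe the spread among pools alone, part of which may be technical, and single animals were not measured.

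A muscle that is suddenly overloaded passes through a sequence of states. Damaged and strained fibres first express stress and growth genes, and neutrophils, then monocytes and macrophages, enter the tissue and clear debris. Satellite cells, the stem cells of muscle, divide, differentiate and fuse with fibres or form new ones, while fibroblasts, fibro-adipogenic progenitors and tendon cells rebuild the connective tissue. New fibres express embryonic and perinatal myosin before the adult isoforms, and repeated load shifts fibres towards slower and more oxidative isoforms.

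The arrays were Affymetrix Mouse Gene 1.0 ST chips, and the deposited values are intensities, which were put on the log2 scale, where a difference of 1 is a 2-fold change. The median intensity of an array lay between 242.8 and 254.9. Unless stated otherwise, levels are log2 intensities given as the right pool and then the left pool of each day, differences are late minus early with the standard error of the fit, and n is 4 arrays in each group. A gene was called when its Benjamini-Hochberg adjusted p from limma was under 0.05. Acta1, the skeletal muscle actin, read between 14.19 and 14.40 on day 0, in the early group and in the late group, close to the highest value of any gene on any array, 14.85. Liver genes were also present: the summed intensity of 22 hepatocyte genes ran from 31170 to 110000 on the early arrays, from 10560 to 27050 on the late arrays and was 25150 and 110500 on day 0. The right pool of day 1 and the left pool of day 0 were the highest. Of these 22 genes 9 fell and 0 rose, but without the right pool of day 1 only 1 fell. Liver is named below as a source for Arg1 and the complement components. Other genes that liver may also make were not marked, and the part of this signal in other results was not tested.

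Late and early overload differed over much of the array. Of 19938 genes 8706 were called (43.7%), 4805 as rises (24.1%) and 3901 as falls (19.6%), and the median difference over all genes was -0.00684. Changes of more than 2-fold were called for 583 rises (2.92%) and 530 falls (2.66%). All 4 late arrays lay above all 4 early arrays for 3361 genes (16.9%) and below them for 2831 (14.2%). When day 10 and day 14 were each set against day 1 and day 3, 1759 genes rose in all 4 pairs of days (8.82%) and 1292 fell in all 4 (6.48%). Taken singly, day 10 differed from day 1 in 41.9% of genes and from day 3 in 28.4%, and day 14 differed from day 1 in 41.2% and from day 3 in 33.9%. In these counts the spread was that between the 2 pools of a day. A stricter fit with 2 groups of 4 arrays, in which the difference between day 1 and day 3 and between day 10 and day 14 also counts as spread, called 5060 genes, 2834 as rises and 2226 as falls. It is called the 2-group fit below and is given where it ended the late against early call of a gene described or moved a list's number of calls by over 1.5 times. The balance of rises and falls depended on the scaling: with equal array medians there were 4043 rises and 4804 falls, so that rises were 45.7% of the calls in place of 55.2%, and the median difference over all genes was -0.056.

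Small RNAs, gene models, Y-linked genes and the third of genes with the lowest mean intensity were left out of the rankings that follow. Among the genes left out, miRNA genes rose by up to 3.26 and are described further on. Of the remaining genes whose groups did not overlap, the 20 largest called falls ran from -2.89 to -4.67. Besides genes described further on they held Clec4e (-3.78), a receptor of activated myeloid cells for damage and microbial lipids, Ccr1 (-3.64), a chemokine receptor of monocytes and neutrophils, Slfn1 (-3.36), a Schlafen family gene, the long non-coding RNA Mirt2 (-3.74) and Ms4a4c (-3.28), a membrane-spanning protein of leukocytes. The 20 largest rises on the same terms ran from 2.71 to 3.99. They included Pamr1 (3.38), a secreted protein named for its association with muscle regeneration, Angptl1 (3.25), an angiopoietin-like secreted protein, Atp1b4 (3.12), a muscle protein of the Na,K-ATPase beta subunit family, and Edil3 (2.71), a matrix ligand of integrins. Ptn (2.81), the heparin-binding growth factor pleiotrophin, Nrk (2.79), a protein kinase, and Prss35 (2.73), a protein of the serine protease family, were among them too. Each of these genes was also called in the 2-group fit.

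**Figure D1:**
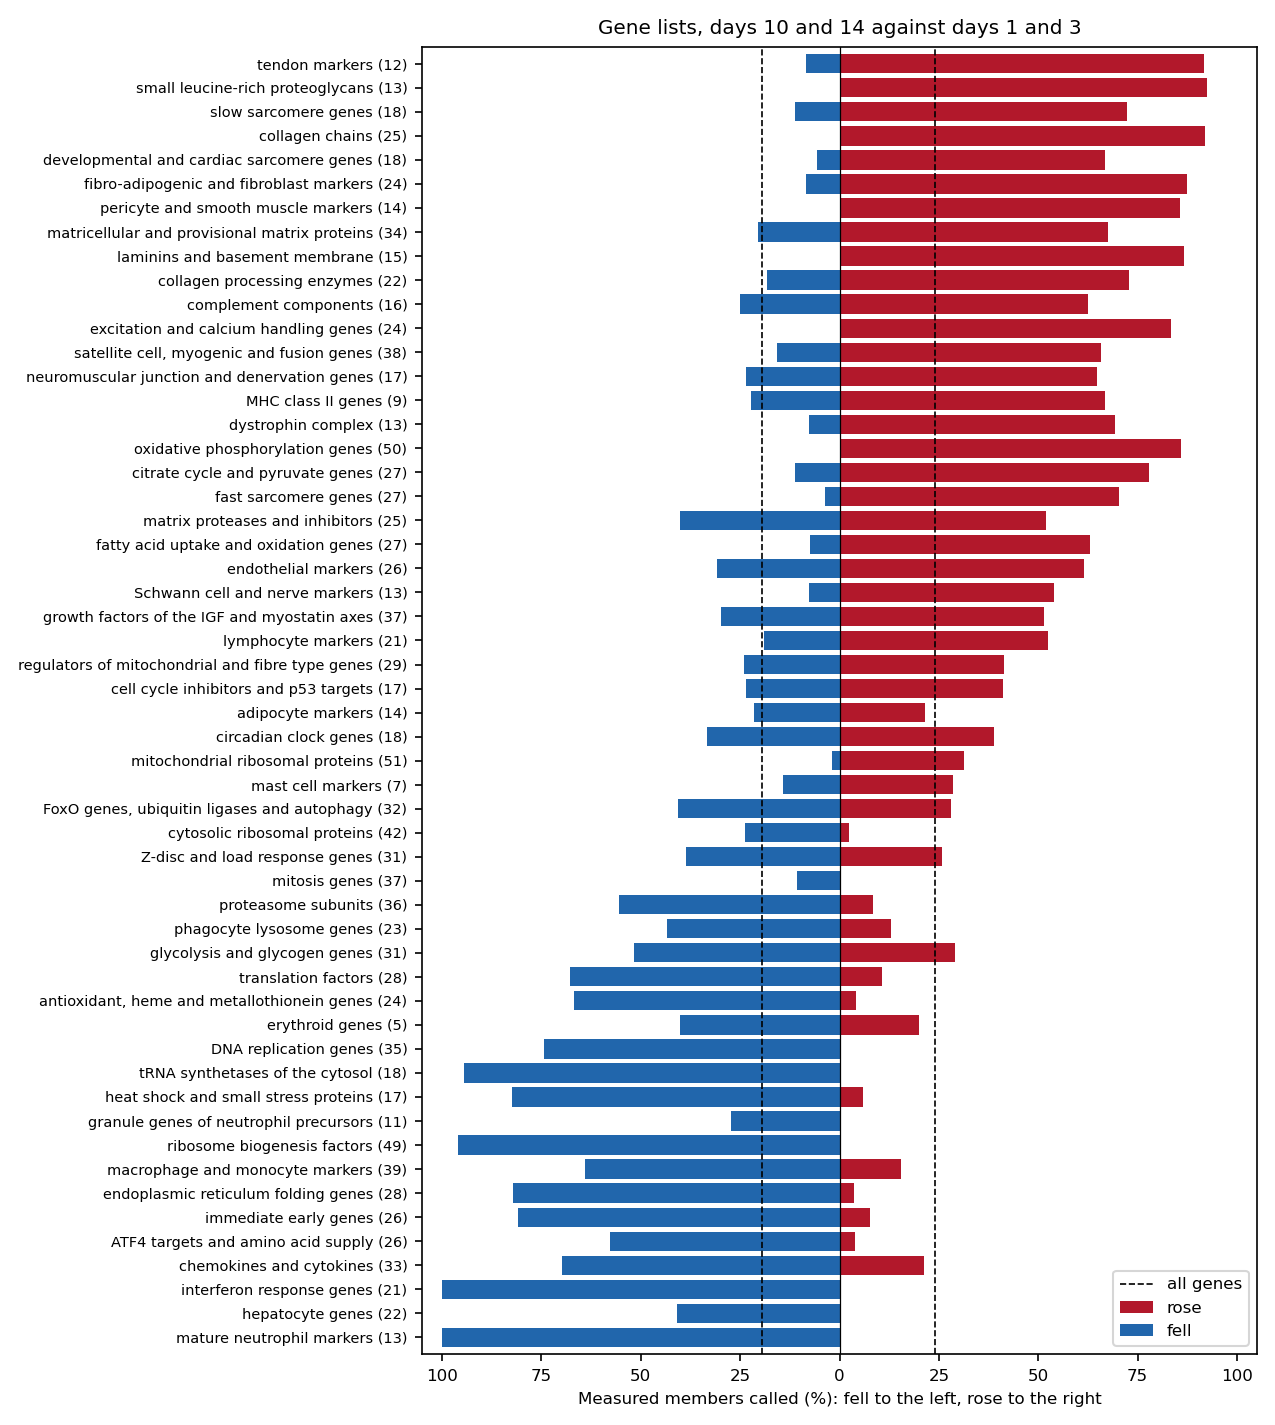
Share of the measured members of each gene list that rose (right) or fell (left) in late against early overload (limma, adjusted p under 0.05), in percent. Dashed lines mark the shares over all 19938 genes, 24.1% for rises and 19.6% for falls. All 13 mature neutrophil genes and 21 of 21 interferon response genes fell, and 23 of 25 collagen chains rose.

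Genes of mature neutrophils, the granulocytes that enter damaged tissue first, fell together. Of 13 measured, 0 rose and 13 fell, with a median difference of -2.66. Cxcr2, the receptor through which neutrophils follow CXC chemokines, read 11.50 and 12.66 on day 1, 10.23 and 10.59 on day 3, 6.28 and 6.61 on day 10 and 6.43 and 6.97 on day 14. Every late array lay at least 3.26 below every early one, near the day 0 levels of 7.22 and 6.66. The difference was -4.67 ± 0.25 (SE; adjusted p = 4.73e-08), or 25.5-fold. Csf3r, the receptor for granulocyte colony-stimulating factor, fell by 2.91 and S100a8, a subunit of the calcium-binding protein calprotectin, fell by 2.89. Falls were also called for Il1r2, the interleukin 1 decoy receptor (-2.89), Mmp8 and Mmp9, a collagenase and a gelatinase of neutrophil granules (-2.66 and -2.58), Slpi, a protease inhibitor (-1.34), and Cd177, a neutrophil surface protein (-0.91). On the late arrays 7 of the 13 genes were below day 0 and 1 was above it (all genes 29.3% and 24.3%), whereas 12 were above day 0 on the early arrays (all genes 23.6%). In bulk tissue fewer cells of a type and less RNA per cell cannot be told apart. Of granule genes made by neutrophil precursors in the marrow, 11 were measured, 0 rose and 3 fell, with a median of -0.49. The 2-group fit called 1 fall, and without the right pool of day 1 there were 2 falls and the median was -0.158.

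Chemokines and cytokines, the secreted signals that recruit and activate leukocytes, mostly fell. Of 33 measured, 23 fell and 7 rose, with a median of -0.90, and the 2-group fit called 21 falls and 3 rises. Ccl2, the main attractant of monocytes, read 12.46 and 12.55 on day 1, 12.25 and 12.40 on day 3, 9.20 and 9.01 on day 10 and 8.55 and 8.56 on day 14. The early arrays lay within 0.31 of each other, and all late arrays lay at least 3.05 below them, above the day 0 levels of 7.84 and 7.51. The difference of Ccl2 was -3.58 ± 0.08 (SE; adjusted p = 3.05e-10), or 12-fold. Il1b, the inflammatory cytokine interleukin 1 beta, read 11.14 and 11.76 on day 1, 10.11 and 10.04 on day 3, 7.88 and 7.32 on day 10 and 7.42 and 7.31 on day 14, a difference of -3.28 ± 0.14 (SE; adjusted p = 8.77e-09). Here day 1 was the highest day, and the late arrays lay between 7.31 and 7.88 against 7.06 and 7.12 on day 0. Among the neutrophil attractants, Cxcl2 fell by 4.13, Cxcl5 by 3.47, Cxcl3 by 3.29 and the platelet chemokine Ppbp by 3.54. Cxcl2 and Cxcl3 were higher on day 1 than on day 3 by 2.5 and 2.30, whereas Cxcl5 differed between these days by 0.06. The monocyte attractants Ccl7 (-2.99) and Ccl3 (-2.57) fell as well, and so did Il1f9 (-3.49), an interleukin 36 cytokine, and Il33 (-0.70), an alarmin. The rises were small: Cxcl9 (0.69), an interferon gamma target that attracts T cells, and Cxcl16 (0.71), a membrane-bound chemokine, whose call ended in the 2-group fit (adjusted p = 0.131).

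Macrophage and monocyte genes did not move as one group. Of 39 measured, 25 fell and 6 rose, with a median of -0.68, and the 2-group fit called 20 falls and 1 rise. Unlike the neutrophil genes, most stayed above day 0: 31 of 39 were above it on the late arrays (all genes 24.3%), with a median of 1.56. Arg1, the arginase of wound and M2-type macrophages, read 11.85 and 11.90 on day 1, 11.42 and 11.79 on day 3, 7.04 and 7.41 on day 10 and 7.19 and 6.70 on day 14. The nearest arrays of the groups were 4.0 apart, a difference of -4.65 ± 0.30 (SE; adjusted p = 2.83e-07). Liver also makes Arg1, and the day 0 pools read 7.37 and 9.16, with the left pool, rich in liver genes, the higher. Adgre1, a surface protein of most macrophages, read 10.21 and 9.97 on day 1, 11.45 and 11.25 on day 3, 10.95 and 10.96 on day 10 and 10.34 and 10.34 on day 14. The late arrays lay between day 1 and day 3, and the difference of -0.07 ± 0.07 (SE; adjusted p = 0.425) was not called. Trem2, a lipid receptor of macrophages, and Gpnmb, a glycoprotein of lipid-laden macrophages, had the same order of days, with differences of -0.14 ± 0.09 (SE; adjusted p = 0.256) and 0.30 ± 0.12 (SE; adjusted p = 0.0722), neither called. C1qa, the complement subunit made by tissue macrophages, rose by 0.68, but its day 3 arrays lay above all late ones and the 2-group fit ended the call (adjusted p = 0.441). The scavenger receptor Mrc1 fell by 0.51, a call that the 2-group fit also ended (adjusted p = 0.219). Retnla, a product of alternatively activated macrophages, rose by 2.13 ± 0.17 (SE; adjusted p = 1.64e-06), after reading 7.15 and 6.97 on day 1, 6.01 and 6.57 on day 3, 8.24 and 8.83 on day 10 and 9.26 and 8.91 on day 14.

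Genes for digestion inside phagocytes split. Of 23 phagocyte lysosome genes 10 fell and 3 rose, with a median of -0.19, and the 2-group fit called 6 falls. Ctsk, the collagen-degrading cathepsin K, read 9.05 and 8.48 on day 1, 9.29 and 9.39 on day 3, 11.28 and 11.33 on day 10 and 11.14 and 11.22 on day 14. All late arrays lay at least 1.76 above all early ones, a difference of 2.19 ± 0.12 (SE; adjusted p = 5.12e-08). Atp6v0d2, a proton pump subunit of macrophages and osteoclasts, rose by 1.42, while the cathepsins Ctss and Ctsc fell by 0.85 and 0.78. The adaptor Tyrobp, which couples Trem2 and other myeloid receptors, fell by 1.10, with day 14 below day 10 by 1.22.

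**Figure D2:**
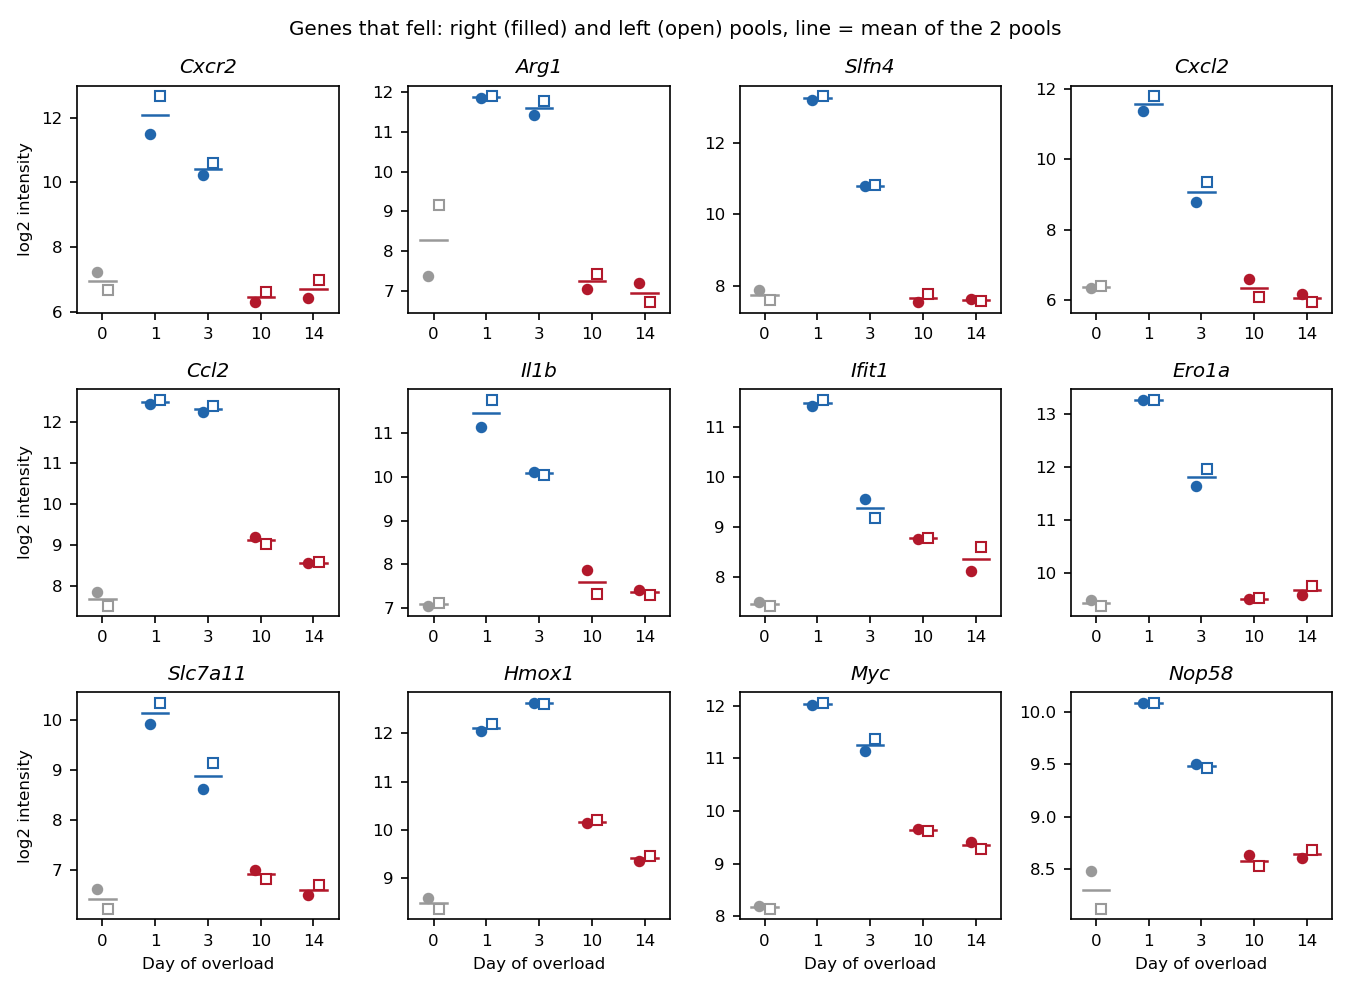
Log2 intensity of 12 genes that fell from early to late overload, on days 0, 1, 3, 10 and 14 (x axis, labelled days and not to scale). Filled points are right pools, open points are left pools and lines are their means. Cxcr2 is above 10 on the early arrays and below 7 on the late arrays, and Ccl2 falls from above 12 to between 8.5 and 9.3.

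Every measured gene of the interferon response list fell. These genes are induced by interferons through the interferon-stimulated response element in their promoters, and many of their products block viral replication. Of 21 measured, 0 rose and 21 fell, with a median of -1.43, and the 2-group fit called 19 falls. They had not returned to day 0: 16 of 21 were above it on the late arrays and 2 were below (all genes 24.3% and 29.3%). Ifit1, a protein that binds foreign RNA ends, read 11.43 and 11.56 on day 1, 9.56 and 9.19 on day 3, 8.76 and 8.78 on day 10 and 8.11 and 8.60 on day 14. Day 1 was higher than day 3 by 2.12, and all late arrays lay below day 3. The difference was -1.87 ± 0.11 (SE; adjusted p = 1.31e-07). Mx1, an antiviral GTPase, fell by 2.19 and Rsad2, the antiviral enzyme viperin, by 2.28. Irf9, a transcription factor of the interferon response, fell by 0.61. The smallest fall named was that of Gbp3, a guanylate-binding protein: -0.26 ± 0.06 (SE; adjusted p = 0.00471), a call that the 2-group fit ended (adjusted p = 0.453), while its late arrays (up to 8.67) lay between those of day 1 (9.23 and 9.31) and day 3 (8.39 and 8.33).

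The promoters of Ifit1 and Rsad2 are shown because the interferon list fell as a whole and its known response element can be read in them. They are RefSeq sequences of GRCm38.p6, the 250 bases before the start site on the gene's own strand, for Ifit1 (chr19:34640639-34640888, plus strand) and Rsad2 (chr12:26456453-26456702, minus strand). Capitals mark matches to the response element, which is TTTC, any pair of bases and TTTC again, on either strand.
Ifit1: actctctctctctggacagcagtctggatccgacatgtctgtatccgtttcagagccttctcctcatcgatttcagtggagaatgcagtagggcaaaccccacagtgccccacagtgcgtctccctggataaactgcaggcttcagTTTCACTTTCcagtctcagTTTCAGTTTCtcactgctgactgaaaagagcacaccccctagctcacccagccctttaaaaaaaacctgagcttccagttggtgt
Rsad2: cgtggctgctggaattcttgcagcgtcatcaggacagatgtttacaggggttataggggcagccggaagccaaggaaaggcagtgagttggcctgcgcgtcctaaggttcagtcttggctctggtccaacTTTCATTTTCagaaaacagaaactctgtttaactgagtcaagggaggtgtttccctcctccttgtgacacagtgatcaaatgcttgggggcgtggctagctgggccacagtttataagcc
In windows from 250 bases before to 50 bases after the start site, searched on both strands, these letters were found for 9 of 16 listed genes with a promoter entry (56.2%), against 3.99% of all 27025 genes with a promoter entry (3.44% of the 32851 promoters, all of the same length). Genes with the match and genes without it both fell: 9 of 9 with a median of -0.91, and 7 of 7 with a median of -1.43. A match is a description of the letters and says nothing of binding.

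Genes of protein folding and secretion in the endoplasmic reticulum fell. Of 28 measured, 23 fell and 1 rose, with a median of -0.68. Ero1a, the oxidase that supplies disulfide bonds to newly made proteins, read 13.27 and 13.28 on day 1, 11.65 and 11.97 on day 3, 9.49 and 9.52 on day 10 and 9.57 and 9.75 on day 14. The late arrays lay near day 0 (9.49 and 9.38) and at least 1.90 below the lowest early array. The difference was -2.96 ± 0.08 (SE; adjusted p = 7.47e-10), or 7.76-fold. Sdf2l1, an ER chaperone cofactor, fell by 1.75, and Hspa5, the main ER chaperone BiP, fell by 1.22 ± 0.05 (SE; adjusted p = 9.57e-09). The exception was Ppib, a cyclophilin that assists collagen folding, which rose by 0.19 (adjusted p = 0.011), a call that the 2-group fit ended (adjusted p = 0.0974). Sec61b, a subunit of the channel into the ER, fell by 0.22, likewise only in the first fit (2-group adjusted p = 0.318). On the late arrays 20 of the 28 genes were still above day 0 (all genes 24.3%), against 26 on the early arrays (all genes 23.6%).

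Targets of ATF4, the transcription factor of the amino acid and integrated stress response, fell in most cases. Of 26 measured, 15 fell and 1 rose, with a median of -0.85. Asns, which makes asparagine, read 11.50 and 11.45 on day 1, 11.13 and 11.35 on day 3, 10.41 and 10.42 on day 10 and 9.88 and 9.81 on day 14, a difference of -1.23 ± 0.09 (SE; adjusted p = 6.87e-07). The late arrays were below all early ones and above day 0 (9.18 and 8.81), with day 14 below day 10. Slc7a11, the cystine importer, fell by 2.75 ± 0.14 (SE; adjusted p = 3.58e-08). Mthfd2, the mitochondrial folate enzyme, fell by 1.83 to late levels of 8.65 to 8.80, beside 8.90 and 8.69 on day 0. The single rise was Slc1a4, a carrier of small neutral amino acids (0.39), whose call the 2-group fit ended (adjusted p = 0.101). The 4E-BP1 gene Eif4ebp1, which encodes a repressor of cap-dependent translation, fell by 1.15.

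The promoters of Hspa5, Calr and Asns show the elements of these stress pathways in 3 genes that fell. Calr encodes the lectin chaperone calreticulin and fell by 0.36 ± 0.05 (SE; adjusted p = 6.27e-05). The sequences are again the 250 bases before the start site in GRCm38.p6 from RefSeq, for Hspa5 (chr2:34771840-34772089, plus strand), Calr (chr8:84846932-84847181, minus strand) and Asns (chr6:7693210-7693459, minus strand). In Hspa5 and Calr capitals mark the endoplasmic reticulum stress element, which is CCAAT, any 9 bases and CCACG, on either strand, and in Asns the element TGATGNAA, which ATF4 is known to bind in amino acid response genes.
Hspa5: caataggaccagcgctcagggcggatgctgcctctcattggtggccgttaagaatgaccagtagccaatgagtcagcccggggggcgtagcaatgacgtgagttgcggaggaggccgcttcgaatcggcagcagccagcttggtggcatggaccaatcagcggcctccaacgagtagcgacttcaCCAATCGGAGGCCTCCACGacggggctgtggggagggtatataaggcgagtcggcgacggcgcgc
Calr: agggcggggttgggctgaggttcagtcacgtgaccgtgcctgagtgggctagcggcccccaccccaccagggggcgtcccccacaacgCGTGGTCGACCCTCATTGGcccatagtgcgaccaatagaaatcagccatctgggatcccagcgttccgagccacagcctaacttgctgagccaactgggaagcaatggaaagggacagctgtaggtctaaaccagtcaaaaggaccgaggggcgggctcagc
Asns: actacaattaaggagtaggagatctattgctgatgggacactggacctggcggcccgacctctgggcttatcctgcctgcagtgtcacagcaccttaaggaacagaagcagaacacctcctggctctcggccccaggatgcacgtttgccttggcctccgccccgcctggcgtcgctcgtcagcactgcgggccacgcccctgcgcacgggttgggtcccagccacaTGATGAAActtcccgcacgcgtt
Over the 300-base windows, the first element was found for 10 of 24 listed folding genes (41.7%) against 0.14% of all genes (0.12% of promoters), and the second for 7 of 21 ATF4 list genes (33.3%) against 4.51% of all genes (3.97% of promoters). Of folding genes with the match 10 of 10 fell (median -0.87), and of those without it 11 of 14 (median -0.53). Of ATF4 list genes 4 of 7 with the match fell (median -0.96), and 10 of 14 without it (median -0.85).

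Heat shock proteins fell in most cases. Of 17 measured, 14 fell and 1 rose, with a median of -0.46, but the 2-group fit called 5 falls. Hspa1a, the inducible HSP70, read 12.34 and 12.52 on day 1, 10.37 and 10.02 on day 3, 9.98 and 9.96 on day 10 and 10.17 and 10.11 on day 14. Only the day 1 arrays were high, and day 3 overlapped with the late arrays. Its difference was -1.25 ± 0.11 (SE; adjusted p = 2.41e-06), and the 2-group fit ended the call (adjusted p = 0.128). Hsp90aa1, the inducible HSP90, fell without overlap by 1.27 ± 0.08 (SE; adjusted p = 1.43e-07). Cryab, the small heat shock protein of the Z-disc, fell by 0.19, a call that the 2-group fit ended (adjusted p = 0.0622), and the muscle small heat shock protein Hspb3 was the single rise (0.80).

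Antioxidant, heme and metal-binding genes fell in 16 of 24 cases, with 1 rise and a median of -0.33. Hmox1, which degrades heme, read 12.05 and 12.19 on day 1, 12.64 and 12.62 on day 3, 10.13 and 10.20 on day 10 and 9.36 and 9.45 on day 14. All early arrays lay at least 1.85 above all late ones, a difference of -2.59 ± 0.07 (SE; adjusted p = 4.51e-10). The metallothioneins Mt1 and Mt2 fell by 2.04 and 1.2, and Srxn1, which repairs peroxiredoxins, fell by 2.21 to within 0.02 of day 0. The iron exporter Slc40a1 rose by 0.38, a call that the 2-group fit ended (adjusted p = 0.0907). Sod3, the extracellular superoxide dismutase, fell by 0.22, a call that the 2-group fit ended (adjusted p = 0.512), with late levels above day 1 and below day 3.

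Factors that make ribosomes, which process and assemble ribosomal RNA in the nucleolus, fell almost without exception. Of 49 measured, 0 rose and 47 fell, with a median of -0.67, and the 2-group fit called 46 falls. For 46 of the 49 all late arrays lay below all early ones. Nop58, a core protein of the particles that methylate ribosomal RNA, read 10.08 and 10.08 on day 1, 9.5 and 9.46 on day 3, 8.63 and 8.53 on day 10 and 8.60 and 8.68 on day 14, a difference of -1.17 ± 0.08 (SE; adjusted p = 6.24e-07). The late arrays lay close to each other and to day 0 (8.48 and 8.12). Ddx21, a nucleolar helicase, fell by 1.16 and Rrs1, an assembly factor of the large subunit, by 0.93. Polr1a, the largest subunit of RNA polymerase I, and Bysl, a factor of the small subunit, had the smallest falls named, -0.24 and -0.24. On the early arrays 43 of the 49 genes were above day 0 (all genes 23.6%). On the late arrays 8 were above it and 15 below (all genes 24.3% and 29.3%), with a median of -0.0483.

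Other lists of the translation machinery differed in their counts. All but 1 of 18 cytosolic tRNA synthetases fell (median -0.45), from -0.16 for Kars, which charges lysine, to -0.64 for Nars, which charges asparagine, among those named. Calls for Kars and for Eprs, which charges glutamate and proline, ended in the 2-group fit (adjusted p = 0.107 and 0.0771). Of 28 translation factors 19 fell and 3 rose (median -0.31), and the 2-group fit called 12 falls. Eif1a, an initiation factor, fell by 1.06, while Eef1a2, the elongation factor isoform of muscle and nerve, and Eef2k, the kinase that slows elongation, rose by 0.38 and 0.60. Cytosolic ribosomal proteins, the structural part of the ribosome, gave few calls: of 42 measured 10 fell, 1 rose and 31 were not called, with a median of -0.079. Against day 1 alone 8 rose and 4 fell (all genes 27.2% and 19.4%). Their count of falls depended on the scaling, with 16 after quantile normalization, 19 with equal array medians and 4 in the 2-group fit. Rpl3l, the muscle paralogue of Rpl3, read 11.06 and 11.14 on day 1, 9.70 and 9.67 on day 3, 10.37 and 10.20 on day 10 and 10.80 and 11.18 on day 14, with day 1 and day 14 high and day 3 low, and its difference of 0.25 ± 0.15 (SE; adjusted p = 0.213) was not called. Proteasome subunits fell in 20 of 36 cases and rose in 3 (median -0.16), with 9 falls and 0 rises in the 2-group fit.

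Immediate early genes, transcription factors induced within minutes of a stimulus, fell in 21 of 26 cases and rose in 2, with a median of -0.70. Myc, the growth regulator that drives ribosome production, read 12.01 and 12.05 on day 1, 11.13 and 11.36 on day 3, 9.65 and 9.62 on day 10 and 9.42 and 9.28 on day 14. The late arrays were below all early ones and above day 0 (8.20 and 8.14). The difference was -2.14 ± 0.06 (SE; adjusted p = 7.78e-10), or 4.42-fold. Fosl1, an AP-1 subunit, fell by 2.42, Fos by 1.41, the stress factor Atf3 by 1.65 and Egr1 by 1.19. The orphan nuclear receptor Nr4a2 rose by 1.15 ± 0.06 (SE; adjusted p = 4.54e-08), whereas its relative Nr4a3 was high on day 1, lowest on day 3 and between them on the late arrays, a difference of -0.35 ± 0.07 (SE; adjusted p = 0.00216) that the 2-group fit did not call (adjusted p = 0.706).

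Cell division genes gave no single direction, with day 1 and day 3 on opposite sides of the late days. Of 37 mitosis genes 4 fell and 0 rose, with a median of -0.14. There was 1 fall in the 2-group fit, against 7 on arrays set to equal medians and 6 on quantile-normalized arrays, and without the right pool of day 1 the median was -0.0336. Against day 1 alone 34 of the 37 rose (all genes 27.2%), and against day 3 alone 36 of the 37 fell (all genes 17.5%). Plk1, the polo-like kinase of mitotic entry, read 8.06 and 7.69 on day 1, 10.49 and 10.70 on day 3, 9.29 and 9.24 on day 10 and 8.52 and 8.75 on day 14. Day 3 was the highest of these 4 days, day 1 was at the day 0 level (7.89 and 7.38), and the late difference of -0.28 ± 0.13 (SE; adjusted p = 0.101) was not called. Top2a, the topoisomerase of dividing cells, read 8.31 and 7.57 on day 1, 10.01 and 10.04 on day 3, 8.96 and 8.98 on day 10 and 8.46 and 8.73 on day 14, with the same order of days. Mki67, a marker of cycling cells, did the same with differences of 0.08 ± 0.27 (SE; adjusted p = 0.848) overall and 1.93 for day 3 minus day 1. On the late arrays 34 of the 37 genes were still above day 0 (all genes 24.3%).

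Of 35 DNA replication genes 26 fell and 0 rose, with a median of -0.40, but the 2-group fit called 6 falls. Without the right pool of day 1 the count was 19. Against day 1 alone 7 rose and 5 fell (all genes 27.2% and 19.4%), and against day 3 alone 34 fell (all genes 17.5%). Pcna, the sliding clamp of DNA polymerase, fell without overlap by 0.99 ± 0.07 (SE; adjusted p = 7.32e-07). Rrm2, the small subunit of ribonucleotide reductase, fell by 0.87, a call that the 2-group fit ended (adjusted p = 0.224). Of 17 cell cycle inhibitors and p53 targets 7 rose and 4 fell. Cdkn1c, the imprinted inhibitor p57, rose by 1.64 ± 0.07 (SE; adjusted p = 7.74e-09), while the stress-induced Gadd45a and Gadd45g fell by 1.55 and 1.5.

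Glucose transporters changed in opposite directions. Slc2a1, the ubiquitous carrier GLUT1, read 13.61 and 13.64 on day 1, 12.75 and 12.83 on day 3, 10.61 and 10.48 on day 10 and 10.43 and 10.44 on day 14. The early arrays lay at least 2.14 above the late ones, which lay just below day 0 (10.63 and 10.63). The difference was -2.72 ± 0.05 (SE; adjusted p = 1.27e-10), or 6.57-fold. Slc2a3, the carrier GLUT3 of neurons and leukocytes, fell by 1.81, and Slc2a4, the insulin-regulated carrier GLUT4 of muscle, rose by 0.94 ± 0.13 (SE; adjusted p = 0.000111) to levels still below day 0 by 1.2. Of all 31 glycolysis and glycogen genes 16 fell and 9 rose (median -0.26), with 4 rises and 14 falls in the 2-group fit. Pgam2, the muscle phosphoglycerate mutase, rose by 0.80.

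Genes of muscle breakdown were also divided. Trim63, the atrophy ubiquitin ligase MuRF1, read 13.03 and 12.95 on day 1, 11.11 and 11.14 on day 3, 10.31 and 10.20 on day 10 and 10.42 and 10.49 on day 14, a difference of -1.70 ± 0.07 (SE; adjusted p = 5.17e-09). Day 1 was the highest, day 3 was near day 0 (11.31 and 11.13) and the late arrays were below both. Fbxo32, the ligase atrogin-1, fell by 1.31 ± 0.06 (SE; adjusted p = 1.07e-08) and lay below day 0 by 1.67 on the late arrays. In contrast Map1lc3a, an autophagosome protein, rose by 1.17, and Ddit4l, an inhibitor of mTORC1 signalling, rose by 1.58 from an early level far below day 0. Over the list of 32 FoxO, ligase and autophagy genes 9 rose and 13 fell, and the 2-group fit reversed that balance to 8 rises and 6 falls.

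Collagen genes rose as a group. Of 25 chains 23 rose and 0 fell, with a median of 1.14, and the 2-group fit called 21 rises. Col1a1, a chain of the main fibrillar collagen of tendon and muscle connective tissue, read 10.62 and 10.84 on day 1, 12.88 and 12.69 on day 3, 13.76 and 13.79 on day 10 and 13.67 and 13.73 on day 14. Day 1 was at the day 0 level (10.89 and 10.73), day 3 was higher than day 1 by 2.06, and all late arrays were above day 3. The difference was 1.98 ± 0.07 (SE; adjusted p = 2.12e-09), or 3.94-fold. Col3a1, the companion fibrillar chain, rose by 1.63. The largest rises of the list were those of Col14a1 (2.38) and Col12a1 (2.28), which sit on the surface of fibrils. Col15a1, a basement membrane collagen, rose by 1.70, and the smallest called rises were those of Col22a1 (0.35), found at muscle-tendon junctions, and Col4a5 (0.27), whose call the 2-group fit ended (adjusted p = 0.117). Against day 1 alone all 25 chains rose (all genes 27.2%), and against day 3 alone 21 did (all genes 18.0%).

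Small leucine-rich proteoglycans, which bind collagen and set fibril width, rose as well. Of 13 measured 12 rose and 0 fell, with a median of 1.54, and for 12 all late arrays lay above all early ones. Fmod, fibromodulin, read 10.39 and 10.09 on day 1, 10.32 and 10.82 on day 3, 12.52 and 12.47 on day 10 and 12.65 and 12.68 on day 14. Both early days were below day 0 (11.65 and 11.59) and both late days were above it, a difference of 2.18 ± 0.10 (SE; adjusted p = 2.26e-08). Kera, keratocan, rose by 2.73, Ecm2, a related matrix protein, by 2.61 and Lum, lumican, by 2.35. Dcn, decorin, rose by only 0.49, from high levels of 13.20 to 13.34 to 13.67 to 13.82. On the early arrays 9 of the 13 were below day 0 and 1 above it (all genes 31.4% and 23.6%), and on the late arrays 10 were above it (all genes 24.3%).

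Enzymes that process collagen rose in 16 and fell in 4 of 22 cases (median 0.67), with 9 rises and 1 fall in the 2-group fit. The prolyl hydroxylases, which stabilise the collagen helix, went different ways: P4ha3 rose by 2.14 ± 0.07 (SE; adjusted p = 1.12e-09), while P4ha1 and P4ha2 fell by 0.83 and 0.50, the latter not called in the 2-group fit (adjusted p = 0.0721). Pcolce, an enhancer of procollagen cleavage, rose by 1.28. Lox, the enzyme that crosslinks collagen, read 11.10 and 11.29 on day 1, 12.81 and 12.72 on day 3, 12.37 and 12.35 on day 10 and 11.91 and 11.86 on day 14. Its late arrays lay between day 1 and day 3, and its difference of 0.14 ± 0.06 (SE; adjusted p = 0.0768) was not called.

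Matricellular and provisional matrix proteins, which regulate cells rather than bear load, rose in 23 and fell in 7 of 34 cases (median 0.82), with 18 rises and 3 falls in the 2-group fit. Ccn3, a member of the CCN family, read 7.79 and 7.80 on day 1, 8.80 and 8.35 on day 3, 11.31 and 11.34 on day 10 and 11.39 and 11.56 on day 14. Every early array lay below day 0 (9.42 and 9.27) and every late one above it, a difference of 3.21 ± 0.09 (SE; adjusted p = 9.18e-10). Mfap4, a microfibril protein, rose by 3.05, Cthrc1, a secreted protein of activated fibroblasts, by 2.19, periostin (Postn) by 2.02 and thrombospondin 4 (Thbs4) by 0.79. Tnc, the provisional matrix protein tenascin C, rose by 0.55, but its day 3 arrays (12.56 and 12.59) lay within the late range of 12.17 to 12.78, and the 2-group fit ended the call (adjusted p = 0.294). Falls included Tgfbi (-0.94), a matrix protein induced by TGF-beta, and Cd44 (-0.86), the hyaluronan receptor.

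Matrix proteases and inhibitors were divided, with 13 rises and 10 falls among 25, and 8 rises and 9 falls in the 2-group fit, which turned the balance. Mmp2, the gelatinase of fibroblasts, read 11.32 and 11.36 on day 1, 12.35 and 12.30 on day 3, 13.81 and 13.73 on day 10 and 13.77 and 13.73 on day 14, a difference of 1.93 ± 0.06 (SE; adjusted p = 1.12e-09). The late arrays lay within 0.1 of each other and above all early ones. The collagenase Mmp13 rose by 2.31, whereas the neutrophil proteases Mmp8 and Mmp9 fell as given above and the inhibitor Timp1 fell by 1.2. Laminins and basement membrane genes rose in 13 of 15 cases with 0 falls (median 0.78). Lama2, the laminin chain that links muscle fibres to their basement membrane, rose by 1.70 ± 0.06 (SE; adjusted p = 2.79e-09).

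Genes of tendon cells held the largest single rise among the genes named. Tnmd, tenomodulin, a membrane protein of tendon cells, read 8.34 and 8.07 on day 1, 8.26 and 8.78 on day 3, 12.44 and 12.34 on day 10 and 12.40 and 12.22 on day 14. The nearest arrays of the groups were 3.44 apart, the late arrays lay within 0.22 of each other, and day 0 lay between them at 9.37 and 9.32. The difference was 3.99 ± 0.12 (SE; adjusted p = 8.7e-10), or 15.9-fold. Of 12 tendon genes 11 rose and 1 fell, with a median of 1.77, and the fall was that of Egr1, which is also an immediate early gene. Scx, the transcription factor scleraxis that specifies tendon, read 9.03 and 8.93 on day 1, 10.44 and 10.46 on day 3, 10.34 and 10.16 on day 10 and 9.98 and 9.90 on day 14. Its late arrays lay within the range of day 1 and day 3, and the rise of 0.38 ± 0.07 (SE; adjusted p = 0.000595) was not called in the 2-group fit (adjusted p = 0.503). Several of these genes, Fmod, Kera, Thbs4, Col12a1 and Col14a1, also stand in the matrix lists, so the lists are not independent.

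Markers of fibro-adipogenic progenitors and fibroblasts rose in 21 and fell in 2 of 24 cases (median 0.95). The falls were those of Cxcl14 and Il33 (-0.70). C1qtnf3, Sfrp4 and Sfrp2, given at the end of this paragraph, are not members of the list. Fap, the fibroblast activation protease, rose by 2.02 ± 0.09 (SE; adjusted p = 9.03e-09). Pdgfra, the receptor that defines these progenitors, read 10.82 and 10.60 on day 1, 11.07 and 10.98 on day 3, 10.87 and 10.97 on day 10 and 10.93 and 11.11 on day 14, and its difference of 0.10 ± 0.07 (SE; adjusted p = 0.252) was not called. C1qtnf3, a secreted protein of the C1q and TNF family, read 7.39 and 8.22 on day 1, 9.95 and 10.11 on day 3, 13.08 and 13.04 on day 10 and 12.50 and 12.43 on day 14, a difference of 3.85 ± 0.15 (SE; adjusted p = 5.2e-09). Day 1 was lowest, day 3 intermediate and day 10 highest. Sfrp4, a secreted Wnt antagonist, read 8.15 and 7.87 on day 1, 8.29 and 8.47 on day 3, 10.93 and 11.17 on day 10 and 11.58 and 11.57 on day 14. It stayed near day 0 (8.25 and 8.07) on both early days and rose by 3.12 ± 0.08 (SE; adjusted p = 5.22e-10), with day 14 above day 10 by 0.52. Its relative Sfrp2 rose by 2.26, but day 3 (11.71 and 11.49) was already at the late level, and the 2-group fit ended the call (adjusted p = 0.114).

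**Figure D3:**
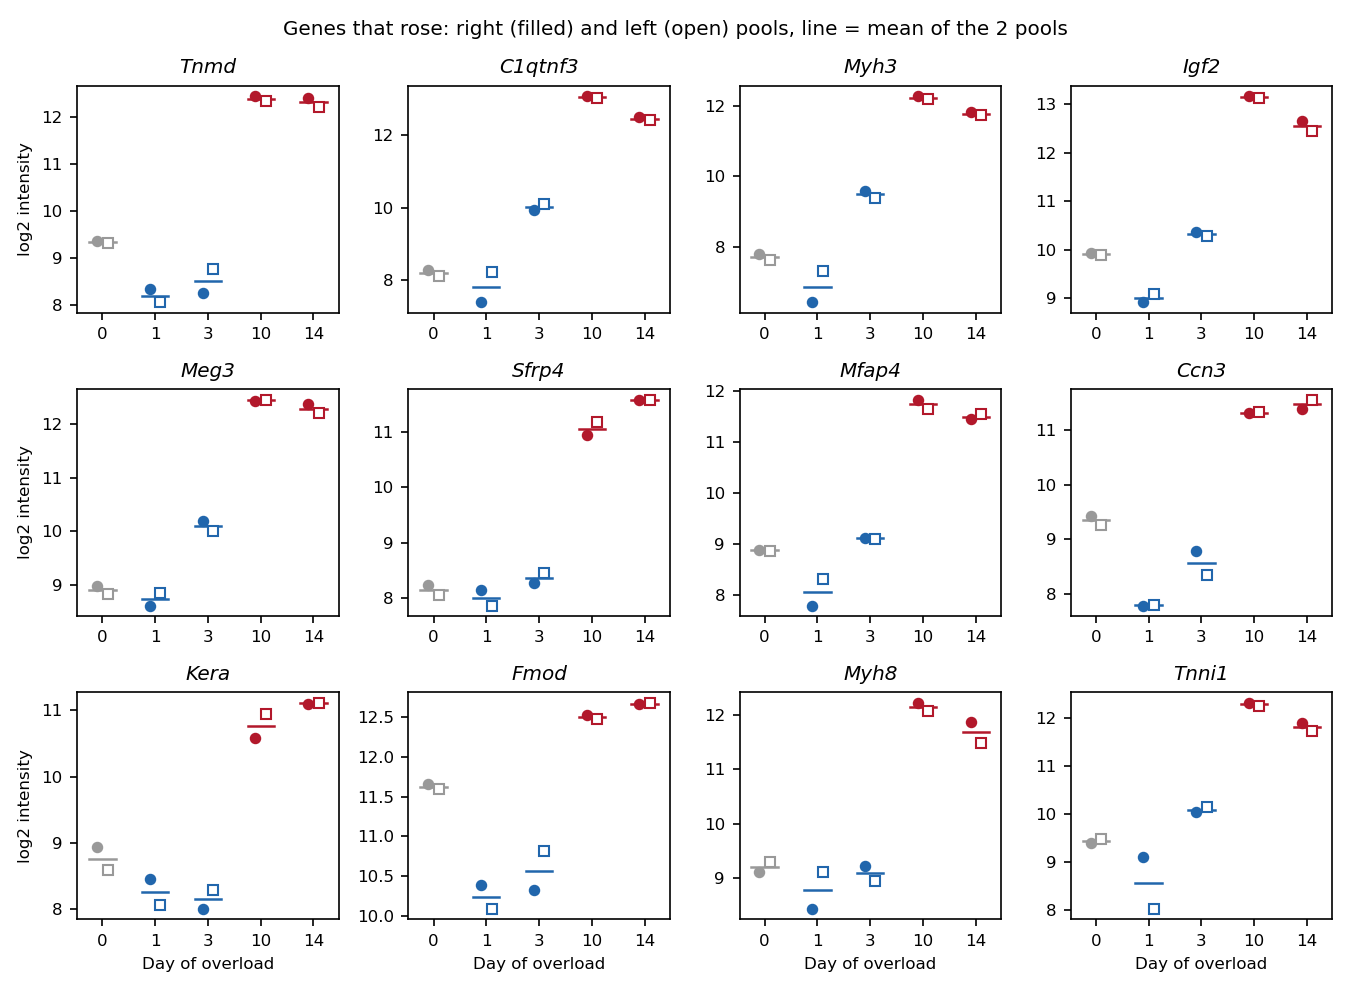
Log2 intensity of 12 genes that rose from early to late overload, on days 0, 1, 3, 10 and 14 (x axis, labelled days and not to scale). Filled points are right pools, open points are left pools and lines are their means. Tnmd and Sfrp4 are near or below day 0 on both early days, while Myh3 and Igf2 are already higher on day 3 than on day 1.

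Among vessel cells, pericyte and smooth muscle markers rose in 12 of 14 cases with 0 falls (median 0.89). Rgs5, a regulator of G protein signalling in pericytes, read 10.44 and 10.49 on day 1, 10.23 and 10.36 on day 3, 11.80 and 11.77 on day 10 and 12.05 and 12.09 on day 14, a difference of 1.55 ± 0.07 (SE; adjusted p = 1.41e-08). All early levels lay at least 1.24 below day 0 (11.74 and 11.76), and late levels lay just above it. Notch3, a receptor of mural cells, rose by 1.16 and the proteoglycan Cspg4 by 0.70. Endothelial markers rose in 16 and fell in 8 of 26 cases (median 0.26), but the 2-group fit called 4 each way. Aplnr, the apelin receptor, rose by 1.39, while its ligand Apln, made by sprouting tip cells, fell by 1.48 ± 0.09 (SE; adjusted p = 1.02e-07). Rgcc, a regulator of the cell cycle listed with endothelial genes, fell by 1.35. Vegfa, the main vessel growth factor, fell by 0.84, a call that the 2-group fit ended (adjusted p = 0.109), with day 3 (11.08 and 11.28) within the late range of 10.78 to 11.29.

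Of other cell types, Schwann cell genes rose in 7 and fell in 1 of 13 cases (median 0.23), and 5 were not called. The rises included Ngfr (0.33) and Erbb3 (0.73), receptors for neurotrophin and neuregulin, and the fall was that of Egr2. The 2-group fit called 6 rises and 0 falls, and 4 of the 13 genes are in the third with the lowest mean intensity. Adipocyte genes gave 3 rises and 3 falls of 14, with 1 rise and 0 falls in the 2-group fit and 1 of each without the right pool of day 1. Adipoq, the adipocyte hormone adiponectin, differed by 0.42 ± 0.21 (SE; adjusted p = 0.134). Of 7 mast cell genes 2 rose and 1 fell. Of 5 erythroid genes 1 rose and 2 fell, with 0 rises and 1 fall in the 2-group fit and 1 of each without the right pool of day 1. Alas2, the heme synthesis enzyme of red cell precursors, fell by 1.22 ± 0.11 (SE; adjusted p = 4.44e-06).

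Genes of antigen presentation and lymphocytes rose more often than they fell. Of 9 MHC class II genes and co-stimulators 6 rose and 2 fell (median 0.51), with 3 rises and 0 falls in the 2-group fit. Against day 3 alone 4 rose and 1 fell (all genes 18.0% and 17.5%), with a median of 0.0096. On day 14, 5 of the 9 were lower than on day 10 (all genes 2.56%). H2-Aa, a class II chain, read 11.24 and 11.26 on day 1, 11.88 and 12.02 on day 3, 12.74 and 12.81 on day 10 and 12.38 and 12.38 on day 14, a difference of 0.97 ± 0.06 (SE; adjusted p = 1.57e-07). Levels were higher on day 3 than on day 1 and higher again on both late days, and exceeded day 0 (10.26 and 10.10) on all arrays. Cd80 and Cd86, the co-stimulators, were the falls (-0.66 and -0.43), and the 2-group fit called neither. Of 21 lymphocyte genes 11 rose and 4 fell (median 0.19), with 6 rises and 2 falls in the 2-group fit. In the third of genes with the lowest mean intensity were 12 of the 21, and 5 were lower on day 14 than on day 10. Their summed intensity was 3777 to 4241 on the early arrays, 4600 and 4673 on day 10 and 3762 and 3768 on day 14. Cd4, the T helper co-receptor, rose by 0.81 ± 0.08 (SE; adjusted p = 5.22e-06) and Nkg7, a granule protein of cytotoxic cells, by 0.90. The cytokine receptor Il7r fell by 1.24. Complement components, made by fibroblasts, macrophages and liver, rose in 10 and fell in 4 of 16 cases (median 0.59). C1s1, a protease of the classical pathway, rose by 1.77, and properdin (Cfp) and the receptor C5ar1, both myeloid, fell by 1.24 and 1.83.

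Developmental isoforms of the contractile apparatus rose. Of 18 developmental and cardiac sarcomere genes 12 rose and 1 fell, with a median of 1.0. Myh3, the embryonic myosin heavy chain of newly formed fibres, read 6.42 and 7.31 on day 1, 9.59 and 9.38 on day 3, 12.27 and 12.20 on day 10 and 11.83 and 11.73 on day 14. It was below day 0 (7.80 and 7.62) on day 1, above it on day 3 and higher again on the late days by at least 2.15, a difference of 3.84 ± 0.15 (SE; adjusted p = 5.87e-09), or 14.3-fold. Myh8, the perinatal myosin, read 8.43 and 9.12 on day 1, 9.22 and 8.95 on day 3, 12.23 and 12.09 on day 10 and 11.88 and 11.48 on day 14. Unlike Myh3 it was still at the day 0 level (9.11 and 9.29) on day 3, and it rose by 2.99 ± 0.14 (SE; adjusted p = 1.91e-08). Actc1, cardiac alpha-actin, rose by 2.69 and Tnnt2, cardiac troponin T, by 2.22. Mybph, myosin-binding protein H, rose by 0.99, with day 3 already at the late level and no call in the 2-group fit (adjusted p = 0.204).

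Adult slow isoforms rose in 13 and fell in 2 of 18 cases (median 1.40). Tnni1, the slow troponin I, which developing fibres also express, read 9.11 and 8.03 on day 1, 10.03 and 10.14 on day 3, 12.31 and 12.23 on day 10 and 11.88 and 11.71 on day 14. The late arrays lay at least 1.58 above the early ones, a difference of 2.71 ± 0.17 (SE; adjusted p = 2.43e-07). Casq2, the slow and cardiac calsequestrin, rose by 2.54, Atp2a2, the slow calcium pump, by 0.66 and its inhibitor Sln, sarcolipin, by 1.31. Myh7, the adult slow myosin, read 9.88 and 8.11 on day 1, 8.09 and 7.87 on day 3, 9.51 and 9.32 on day 10 and 11.14 and 11.37 on day 14. The right pool of day 1 stood apart from its left partner, the day 14 arrays were the highest, and the groups overlapped. The rise was 1.85 ± 0.30 (SE; adjusted p = 0.000369), and 2.29 without that pool. Myl3, the slow essential light chain, read 10.36 and 9.15 on day 1, 8.33 and 8.44 on day 3, 8.62 and 8.42 on day 10 and 10.00 and 10.07 on day 14, and its difference of 0.21 ± 0.23 (SE; adjusted p = 0.515) was not called. Tpm3, the slow tropomyosin, which other cells also express, fell by 0.41.

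Fast sarcomere genes rose in 19 of 27 cases with 1 fall (median 0.29), and the 2-group fit called 8 rises. Against day 1 alone 9 rose and 3 fell (all genes 27.2% and 19.4%), and against day 3 alone 23 rose and 0 fell (all genes 18.0% and 17.5%). Below day 0 were 25 of the 27 on the early arrays (all genes 31.4%) and 15 on the late arrays (all genes 29.3%). Myh2 and Myh1, the IIA and IIX myosins, rose by 0.95 and 0.62. Myh2 read 12.75 and 12.72 on day 1, 12.75 and 12.75 on day 3, 13.56 and 13.59 on day 10 and 13.81 and 13.83 on day 14, with late levels at day 0 (13.68 and 13.61). Myh4, the fastest myosin IIB, read 13.79 and 13.93 on day 1, 13.32 and 13.40 on day 3, 13.36 and 13.28 on day 10 and 13.51 and 13.54 on day 14. Day 1 was at the day 0 level (13.91 and 13.95) and day 3, day 10 and day 14 were lower, and the difference of -0.19 ± 0.09 (SE; adjusted p = 0.0995) was not called. Mylk2, the skeletal myosin light chain kinase, was the fall (-0.87), and its relative Mylk4 rose by 1.09. The 2-group fit ended both calls (adjusted p = 0.132 and 0.131).

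Genes of satellite cells, myogenic differentiation and fusion rose in 25 and fell in 6 of 38 cases (median 0.55), with 15 rises and 4 falls in the 2-group fit. Pax7, the transcription factor of satellite cells, rose by 0.69. Myod1, the factor of commitment, fell by 0.76 ± 0.09 (SE; adjusted p = 2.28e-05). Myog, the factor of differentiation, read 7.77 and 7.76 on day 1, 9.74 and 9.58 on day 3, 10.10 and 10.10 on day 10 and 9.0 and 9.10 on day 14. It was highest on day 10 and lower on day 14 by 1.05, below the day 3 level, and the rise of 0.86 was not called in the 2-group fit (adjusted p = 0.27). Mymk, myomaker, the membrane protein required for myoblast fusion, read 7.99 and 7.86 on day 1, 10.65 and 10.39 on day 3, 11.91 and 11.93 on day 10 and 11.01 and 10.96 on day 14, a difference of 2.23 ± 0.09 (SE; adjusted p = 8.77e-09). All late arrays lay at least 0.31 above day 3 and 2.97 above day 1. Ncam1, the adhesion protein of new and denervated fibres, rose by 1.81. The heparan sulfate proteoglycan Sdc4 fell by 1.01.

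At the neuromuscular junction, 11 of 17 genes rose and 4 fell (median 0.52). Chrna1, the acetylcholine receptor alpha subunit, rose by 1.5 without overlap, although the 2-group fit placed it just above the threshold (adjusted p = 0.0534), and Musk, the kinase that clusters receptors, fell by 1.10 ± 0.05 (SE; adjusted p = 9.78e-09). Excitation and calcium handling genes rose in 20 of 24 cases with 0 falls (median 0.58). Yet 15 of the 24 were below day 0 on the late arrays (all genes 29.3%) and 22 on the early ones (all genes 31.4%). Components of the dystrophin complex rose in 9 and fell in 1 of 13 cases (median 0.46), including Dmd, dystrophin (0.70), and Sspn, sarcospan (1.09). Dysf, the membrane repair protein dysferlin, was the fall (-0.57).

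Z-disc and load response genes were divided, with 8 rises and 12 falls of 31 (median -0.083), and the 2-group fit turned the balance to 8 rises and 6 falls. Ankrd1, a stretch-responsive titin-binding protein, read 13.61 and 13.77 on day 1, 13.15 and 13.10 on day 3, 11.95 and 12.25 on day 10 and 11.90 and 11.70 on day 14. The late arrays were below all early ones, yet at least 2.49 above day 0 (9.21 and 8.89). The difference was -1.46 ± 0.09 (SE; adjusted p = 1.65e-07). Klhl40, a stabiliser of thin filament proteins, fell by 1.60 and Xirp1, a marker of fibre damage, by 0.86. Ky, kyphoscoliosis peptidase, rose by 2.26 ± 0.10 (SE; adjusted p = 1.07e-08) from early levels at least 2.94 below day 0, and Lmod3, an actin nucleator, rose by 1.07. Csrp3, the muscle LIM protein, read 12.76 to 13.04 early and 12.64 to 12.84 late, a difference of -0.20 ± 0.07 (SE; adjusted p = 0.0498) that the 2-group fit did not call (adjusted p = 0.129).

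Igf2, the fetal insulin-like growth factor, read 8.92 and 9.09 on day 1, 10.36 and 10.29 on day 3, 13.17 and 13.14 on day 10 and 12.66 and 12.45 on day 14. Each day stood apart from the others, with day 1 below day 0 (9.93 and 9.89), day 3 just above it, and the late arrays at least 2.09 above day 3. The difference was 3.19 ± 0.06 (SE; adjusted p = 1.03e-10), or 9.11-fold, and day 14 was lower than day 10 by 0.60. Igf1, the main growth factor of loaded muscle, rose by 1.29 ± 0.15 (SE; adjusted p = 3.65e-05) and its binding protein Igfbp5 by 1.12. Mstn, myostatin, the inhibitor of muscle growth, read 10.19 and 10.17 on day 1, 8.0 and 8.43 on day 3, 9.12 and 8.85 on day 10 and 9.83 and 9.85 on day 14. It was highest on day 1, lowest on day 3 and between them on the late days, all below day 0 (11.39 and 11.25), and the difference of 0.22 ± 0.14 (SE; adjusted p = 0.232) was not called. Fst, follistatin, which binds myostatin and activins, rose by 0.95, Tgfb3 by 1.57, and Inhbb, an activin subunit, fell by 0.89. Ostn, the muscle hormone osteocrin, fell by 0.44 (2-group adjusted p = 0.424), with day 3 and both late days far below day 0 (10.59 and 10.42). Over the 37 listed genes of the IGF and myostatin axes 19 rose and 11 fell (median 0.22), with 15 rises and 6 falls in the 2-group fit.

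Imprinted genes stood among the largest rises. Besides Igf2 they were Meg3, the maternal long non-coding RNA of the Dlk1 and Dio3 domain, Dlk1, the paternally expressed membrane protein of the same domain, and Plagl1, a zinc finger regulator of growth. Meg3 read 8.62 and 8.86 on day 1, 10.19 and 10.02 on day 3, 12.42 and 12.45 on day 10 and 12.36 and 12.19 on day 14, a difference of 2.93 ± 0.07 (SE; adjusted p = 3.05e-10). Day 1 was at the day 0 level (8.99 and 8.85), day 3 was higher and the late arrays lay above day 3 by at least 2.01. Dlk1 read 8.69 and 8.49 on day 1, 8.90 and 8.84 on day 3, 11.71 and 11.89 on day 10 and 11.51 and 11.20 on day 14, a difference of 2.85 ± 0.08 (SE; adjusted p = 7.47e-10). Both early days lay at the day 0 level (8.72 and 8.87), so that its rise lay between the early and the late days. Plagl1 rose by 2.90 ± 0.07 (SE; adjusted p = 3.4e-10). Mest, a paternally expressed hydrolase, rose by 2.26.

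The maternal copy of the domain between Dlk1 and Dio3 on mouse chromosome 12 expresses a long transcription unit with small nucleolar RNAs and a large miRNA cluster. Of 103 RefSeq genes in that interval 48 were measured, 46 rose, 1 fell and 1 was not called. The fall was that of Dio3 itself, a deiodinase that inactivates thyroid hormone, whose mean intensity is in the third of genes with the lowest. It read 6.84 and 6.59 on day 1, 7.99 and 7.90 on day 3, 6.71 and 6.73 on day 10 and 6.86 and 6.63 on day 14. Day 3 alone was high and the late arrays were at the day 1 level, a difference of -0.60 ± 0.08 (SE; adjusted p = 8.64e-05) whose call the 2-group fit ended (adjusted p = 0.192). Rian, a further host transcript, rose by 1.98 and Rtl1, a paternally expressed gene derived from a retrotransposon, by 0.67. The miRNA genes were examined after their values had been seen, since the rule for named genes leaves out small RNAs. Of the 40 measured there 39 rose and 0 fell, with a median of 1.47 and a range of 0.07 to 3.26, and the 2-group fit called 37 rises. The 1 not called was Mir666 (0.07). Of 256 miRNA genes measured elsewhere 48 rose and 17 fell, with a median of 0.03. Members of the cluster share a host transcript and 22 of the 40 are among the third of genes with the lowest mean intensity, so they are not independent measurements, and a probe set reads host or precursor RNA without telling the 2 arms of a miRNA apart.

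Mature sequences from RefSeq (GRCm38.p6) are shown for genes of the cluster with large rises and, for contrast, for muscle, leukocyte and matrix miRNAs elsewhere. Capitals mark the seed, bases 2 to 8, which pairs with target RNAs.
miR-382-5p: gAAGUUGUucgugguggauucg
miR-379-5p: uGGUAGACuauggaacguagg
miR-379-3p: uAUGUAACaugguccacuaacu
miR-411-5p: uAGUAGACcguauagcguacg
miR-411-3p: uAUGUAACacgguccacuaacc
miR-495-3p: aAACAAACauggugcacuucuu
miR-206-3p: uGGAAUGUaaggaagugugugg
miR-142a-3p: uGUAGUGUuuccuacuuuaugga
miR-29a-3p: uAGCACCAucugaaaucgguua
miR-18a-5p: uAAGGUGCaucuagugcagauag
The first 6 lie on the plus strand of chromosome 12, from chr12:109709065-109709085 for miR-379-5p to chr12:109733781-109733802 for miR-382-5p. Among these 10 only miR-379-3p and miR-411-3p share a seed, AUGUAAC. The last 4 lie at chr1:20679055-20679076, chr11:87756903-87756925, chr6:31062673-31062694 and chr14:115043867-115043889. Mir382 read 5.61 and 6.05 on day 1, 7.04 and 7.08 on day 3, 9.76 and 9.70 on day 10 and 9.69 and 9.66 on day 14. Day 3 was higher than day 1 by 1.23 and all late arrays were at least 2.58 above day 3, a difference of 3.26 ± 0.09 (SE; adjusted p = 5.15e-10). Mir379 rose by 3.25, Mir411 by 2.44 and Mir495 by 2.61, and all of these but Mir382 are in the third of genes with the lowest mean intensity. Their means over the 14 arrays were 5.98 for Mir379, 6.95 for Mir411 and 4.98 for Mir495.

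Outside the cluster, Mir206, a miRNA gene of skeletal muscle that targets satellite cell genes, read 4.58 and 4.91 on day 1, 5.17 and 5.00 on day 3, 7.46 and 7.54 on day 10 and 6.91 and 6.95 on day 14, a difference of 2.30 ± 0.12 (SE; adjusted p = 5.73e-08). These Mir206 readings are low and lie within the range of Mir379 on the same days, a gene in the third with the lowest mean intensity. Mir142, a miRNA gene of blood cells, fell by 1.56 ± 0.12 (SE; adjusted p = 7.74e-07). Mir18, a member of the cluster that Myc induces, fell by 0.77. Mir29a, a member of the family that targets collagen RNAs, fell by 1.2 ± 0.12 (SE; adjusted p = 7.75e-06), a call that the 2-group fit ended (adjusted p = 0.0711).

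**Figure D4:**
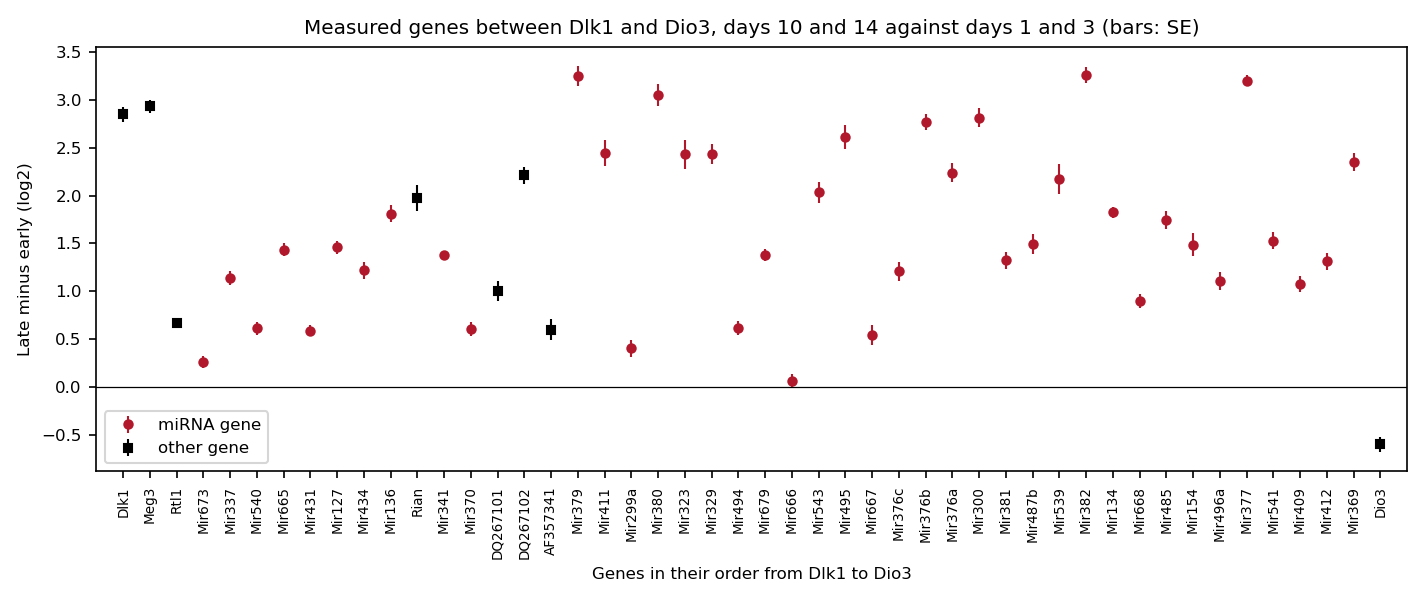
Late minus early log2 difference (y axis, with its SE) of the 48 measured genes of the interval from Dlk1 to Dio3, in genomic order (x axis, order only and not to scale). Circles are miRNA genes and squares are other genes, and the bars can be shorter than the symbols. Dlk1 (2.85), Meg3 (2.93) and most miRNA genes are above 1, and Dio3 (-0.60) at the far end is the only called fall, a call that the 2-group fit ended.

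Genes of mitochondrial energy supply rose by small amounts and stayed below day 0. In the oxidative phosphorylation, citrate cycle and fatty acid lists more genes rose against day 3 alone than against day 1 alone. Of 50 oxidative phosphorylation genes 43 rose and 0 fell, with a median of 0.33, and the 2-group fit called 20 rises. Against day 1 alone 22 of the 50 rose and 0 fell (all genes 27.2% and 19.4%). Against day 3 alone 48 rose and 1 fell (all genes 18.0% and 17.5%). On the late arrays 48 of the 50 were below day 0 (all genes 29.3%). Ndufs1, a complex I subunit, read 11.24 and 11.14 on day 1, 10.33 and 10.45 on day 3, 11.20 and 11.11 on day 10 and 11.52 and 11.64 on day 14. Day 3 was the lowest day and day 1 overlapped with the late arrays. The rise of 0.57 ± 0.06 (SE; adjusted p = 1.19e-05) was not called in the 2-group fit (adjusted p = 0.0977). Atp5o, an ATP synthase subunit, rose without overlap by 0.57 ± 0.06 (SE; adjusted p = 2.32e-05). Citrate cycle and pyruvate genes rose in 21 and fell in 3 of 27 cases (median 0.30), with 6 rises and 2 falls in the 2-group fit. Against day 1 alone 8 of them rose and 3 fell (median 0.059), and against day 3 alone 22 rose and 2 fell. Mdh1 and Idh2, a malate and an isocitrate dehydrogenase, rose by 0.77 and 0.63, while Pdk4, a kinase that inactivates pyruvate dehydrogenase, fell by 0.85. Fatty acid genes rose in 17 and fell in 2 of 27 cases (median 0.27), with 6 rises and 0 falls in the 2-group fit. Against day 1 alone 8 of them rose and 1 fell (median 0.055), and against day 3 alone 20 rose and 2 fell. Fabp3, the fatty acid carrier of muscle, rose by 0.84, and Fabp5, the carrier of skin and macrophages, fell by 0.51, a call that the 2-group fit ended (adjusted p = 0.394).

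Of 51 mitochondrial ribosomal proteins 16 rose, 1 fell and 34 were not called (median 0.043), and the 2-group fit called 6 rises. Ppargc1a, the coactivator PGC-1alpha of mitochondrial genes, read 10.05 and 9.82 on day 1, 8.09 and 8.37 on day 3, 10.03 and 9.71 on day 10 and 10.50 and 10.65 on day 14. Day 3 was the lowest day, while day 1 overlapped with day 10, and the rise of 1.14 ± 0.12 (SE; adjusted p = 1.39e-05) was not called in the 2-group fit (adjusted p = 0.1). Esrrg, the nuclear receptor ERR-gamma of oxidative fibres, rose by 1.25 ± 0.07 (SE; adjusted p = 1.31e-07), and Ppard, a nuclear receptor of fatty acid genes, fell by 1.07. Of 18 circadian clock genes 7 rose and 6 fell, with 5 rises and 3 falls in the 2-group fit. Dbp, an output factor of the clock, read 9.56 and 9.39 on day 1, 9.12 and 9.24 on day 3, 10.62 and 10.59 on day 10 and 11.12 and 11.20 on day 14, a difference of 1.55 ± 0.06 (SE; adjusted p = 5.14e-09). Per3 rose by 1.05, and Nfil3 and Ciart, repressors of the clock, fell by 1.23 and 1.46. The hour of tissue collection is not given in the sources used here.

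Fewer genes were called between the days of the late group than between those of the early group. Between day 14 and day 10, 931 genes were called (4.67%), 420 as rises (2.11%) and 511 as falls (2.56%), against 6920 between day 3 and day 1 (34.7%), 4284 as rises (21.5%) and 2636 as falls (13.2%). The first count rests on both pools of each day: it was 128 and 67 when the right or the left pool of day 10 was left out, and 200 and 79 when the right or the left pool of day 14 was. Rises were 61.9% of the calls between day 3 and day 1, 53.3% after quantile normalization and 38.6% with equal array medians, which moved the median difference of all genes from 0.081 to -0.048. From day 10 to day 14 the rises named were those of Myh7 (1.85 ± 0.42 (SE; adjusted p = 0.0352)), Myl3 (1.52), the complement component C7 (1.31), Mylk4 (1.11), the sodium channel subunit Scn4b (0.99) and Mlf1 (0.96). The falls were those of Ccl3 (-1.89 ± 0.15 (SE; adjusted p = 0.000925)), Tyrobp (-1.22), Prss35 (-1.22), the small RNA gene Rny1 (-1.18), Myog (-1.05) and the T cell attractant Ccl5 (-1.0). Macrophage genes continued to fall, with 21 of 39 lower on day 14 than on day 10 and 0 higher. Of the energy lists, 13 of 27 citrate cycle genes and 12 of 27 fatty acid genes were higher on day 14 than on day 10, as were 4 of 50 oxidative phosphorylation genes, 5 of 31 glycolysis and glycogen genes and 0 of 51 mitochondrial ribosomal proteins.

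Late overload remained far from day 0. Against day 0, 10688 genes were called on the late arrays (53.6%; 24.3% above and 29.3% below) and 10970 on the early arrays (55.0%; 23.6% above and 31.4% below), 2 comparisons that share their day 0 arrays. Of the late calls 45.4% were above day 0, and 32.7% with equal array medians. Neutrophil, ribosome biogenesis and ATF4 genes were near or below day 0 on the late arrays, with medians of -0.45, -0.0483 and 0.0236. Macrophage and interferon genes were above it, with medians of 1.56 and 0.74, and so were collagens (1.18) and slow sarcomere genes (1.02). Oxidative phosphorylation genes (-0.55) and fatty acid genes (-0.90) were below it.

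**Figure D5:**
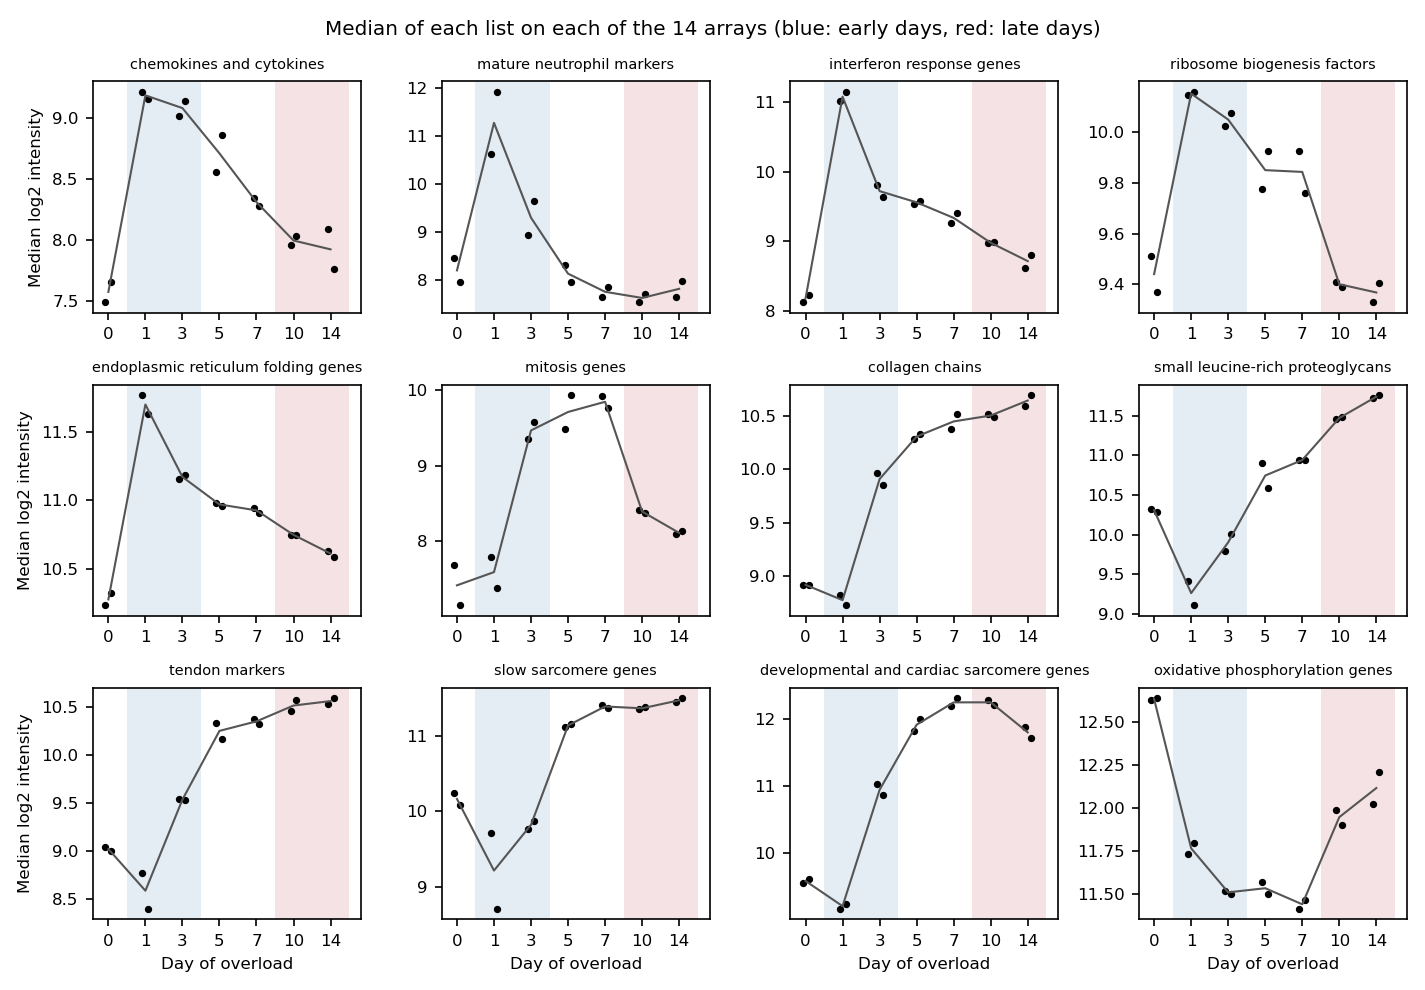
Median log2 intensity of 12 gene lists on each of the 14 arrays, by day (x axis, labelled days and not to scale). Points are single arrays, with the right pool to the left of each day, lines join the means of the 2 pools, and blue and red bands mark the early and late days. The neutrophil and ribosome biogenesis lists are highest on day 1, collagens and tendon genes are lowest on day 1 and higher on every later day, and the mitosis list is high from day 3 to day 7 and lower on days 10 and 14.

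The contrast of late with early was also computed within right and within left pools. No gene differed between the sides at an adjusted p under 0.05 in limma, and 358 did at an unadjusted p under 0.05 (1.80%). A p that misses the threshold does not show that the sides act alike.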

How the data were processed

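RNA of 14 pools of plantaris muscle was hybridised to Affymetrix Mouse Gene 1.0 ST arrays. The authors deposited 1 table of linear intensity values for 35556 probe sets. Per the submitters' processing notes it was made with Partek, version and normalization not given in the sources used here. The amount of RNA labelled is given as 100 ng in the series text and as 250 ng in the labels' protocols. The precision is limited by the number of arrays.

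From the deposited intensities, log2 values were computed with no pseudocount. Probe sets were named through GEO's platform annotation: 21789 had 1 gene symbol, 1621 had several and were not named, and 12146 had none. A gene read by more than 1 probe set (999 genes) was represented by its brightest on average, which left 19938 genes. limma 3.58.1 (R 4.3.3) was fitted with 1 mean for each of the 7 days over all 14 arrays, with empirical Bayes moderation (7 residual and 3.88 prior degrees of freedom). The late contrast is the mean of days 10 and 14 minus the mean of days 1 and 3, so that days weigh equally. Within each contrast the Benjamini-Hochberg adjustment ran over 19938 genes, and genes were called at an adjusted p-value under 0.05. Tables and figures used Python 3.11.15, pandas 2.3.3 and matplotlib 3.10.9, and the fit was tested on simulated data.

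The genes named were the 20 largest called rises and falls without overlap between late and early arrays, the 6 largest each way between day 14 and day 10, day 3 and day 1, and late and day 0, the 2 highest and 2 lowest called members of each of 54 lists, and a fixed panel. The third of genes with the lowest mean intensity, gene models, small RNAs and Y-linked genes were to be counted and not named, but the small RNA Rny1 passed this filter by its name. Hspa5, Calr, miRNA genes and imprinted genes outside this rule were chosen after their values were seen. Of 1366 listed genes 1272 were measured. The comparison and the lists were chosen with earlier results of these data known. Promoter and miRNA sequences came from RefSeq (GRCm38.p6), and of 296 measured miRNA genes 270 matched a mature entry. Alternatives were quantile or median scaling, leaving out the third of genes with the lowest mean, the mean of probe sets, other priors, side as a replicate block, fewer arrays, single days as a group, and stricter thresholds.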

Additional observations from a re-analysis of the deposited data

Results flagged for a closer look

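For 17 named genes the late level lay on opposite sides of day 1 and day 3, so that the direction of late against early depends on the early day, and the difference between day 3 and day 1 was itself called by limma. The values in brackets are day 3 minus day 1 on the log2 scale. Higher on day 3, with the late days between, were the macrophage genes Adgre1 (1.26), C1qa (2.32), Fcrls (2.95), Gpnmb (2.17) and Trem2 (1.75), and Fabp5 (1.5), a fatty acid carrier. The same order held for the division genes Anln (2.62), Cdca8 (1.41), Plk1 (2.72) and Top2a (2.09), and for Lox (1.57), Scx (1.47) and Sod3 (0.89). Lower on day 3, with the late days between, were Mstn (-1.96), Mlf1 (-1.77), Scn4b (-1.25) and Nr4a3 (-2.31). For Fcrls, a receptor-like gene of macrophages, late overload was 2.38 above day 1 and differed from day 3 by -0.57.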

How the results depend on the processing

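Of 300 named genes 143 kept their side of the threshold in late against early under every alternative run, with no change of direction counted. A change of direction was counted only where the gene was called in the main fit, the alternative or both, which held for 39 genes under at least 1. Sign changes of genes called in neither fit were not counted and are not listed. With the direction kept in the alternative concerned, 139 lost the call under at least 1 and 18 gained it under at least 1. A gene can stand in more than 1 of the counts 39, 139 and 18, so they do not divide the 300 genes. With day 1 alone as the early group the differences counted as changed in sign were Adgre1 0.56, Anln 1.15, Cdc20 0.30, Cdc45 0.0073, Cdca8 0.45, Cox5a -0.0302, Cox7a1 -0.0972, Cxcl14 0.14, Fabp5 0.24, Mlf1 -0.57, Mrc1 0.0489, Mstn -0.77, Plk1 1.08, Pold1 0.0114, Rps12 0.11, Rrm2 0.06, Ryr1 -0.11, Scn4b -0.59, Sec61b 0.008, Sod3 0.22, Top2a 0.85, Tpx2 0.38, Trem2 0.74. With day 3 alone they were C1qa -0.48, Fcrls -0.57, Gbp3 0.19, Gpnmb -0.79, Lox -0.65, Mybph -0.0418, Myog -0.0823, Nr4a3 0.80, Odf3l2 0.12, Ostn 0.24, Psmb5 -0.0355, Psmb6 -0.0396, Scx -0.36, Sntb1 -0.18, Tnc -0.11. With day 10 alone as the late group they were Adgre1 0.23, Egr2 0.0312, Rps12 0.0153. The cause was not tested.

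The count of late against early calls was 8706 and kept within 1.5 times under all scalings, filters, priors and single-day groups. It was 5060 (2834 rises and 2226 falls) with 2 groups of 4 arrays, 1113 (583 and 530) at more than 2-fold, and 1418 (820 and 598) when tested against 1.5-fold. Leaving out 1 of the 8 arrays gave 7453 to 8319 calls. With equal array medians day 3 against day 1 gave 2493 rises and 3973 falls. Between day 14 and day 10 the count was 1544 (740 rises, 804 falls) without the third of genes with the lowest mean and 1431 (687 rises) with a trended prior, and leaving out 1 array gave 67 to 200 calls (13 to 113 rises and 54 to 87 falls).

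Same-numbered pools share a side of the body, not known animals, and their deviations correlated between days at -0.58 to 0.44, over 0.1 in 9 of 21 pairs of days, so the numbers do not pair the samples. With side as a replicate block 8486 genes were called (4720 rises, 3766 falls), and 731 between day 14 and day 10. The median standard error of the late difference was 0.0699 over all genes, and 2 pools a day limit it. The deposited values give no signal over background, so weak probe sets were ranked by mean intensity only.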

Other observations

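Imprinted genes were counted over a list of 70 written after the rises of Igf2, Meg3, Dlk1 and Plagl1 had been seen, so the count describes these data and tests nothing. Of 60 measured, 31 rose and 8 fell from early to late overload, 21 were not called, and the median difference was 0.30. The 2-group fit called 27 rises and 3 falls. Differences above 2 log2 units were measured for 8 genes. Besides Igf2, Meg3, Plagl1, Dlk1 and Mest these were Zdbf2 (2.37), Peg3 (2.28), a zinc finger protein of fetal tissues, and Zim1 (2.08). Falls were those of Asb4 (-0.78), an adaptor of ubiquitin ligases, Slc38a4 (-0.65), an amino acid carrier, Dio3 (-0.60) and Blcap (-0.55), among others, and of these 4 the 2-group fit ended the calls of Slc38a4 (adjusted p = 0.117), Dio3 (0.192) and Blcap (0.0879).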
